A study of Mus musculus with 16 samples.

Results

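The interaction of lipopolysaccharide (LPS) and cordycepin was examined in RAW264.7 cells, a mouse tumour line with macrophage features, on 16 arrays, which are all 16 samples of the series. For each gene the interaction is the LPS response in the presence of cordycepin, LPS+cordycepin minus cordycepin, less the LPS response in its absence, LPS+DMSO minus DMSO. It was estimated on the log2 scale for every array probe other than the control probes. Of 55681 such probes, 21597 exceeded background clearly in all 4 replicates of some condition, and these gave 15911 genes, 11602 of them with a gene symbol, each read by its brightest probe. A negative interaction in a gene that LPS raised is a smaller rise in the presence of the drug.

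All 4 conditions came from cells kept beforehand for a day in low-serum medium. The DMSO cells received the solvent alone. The cordycepin cells received 20 µM cordycepin in DMSO, LPS+DMSO cells received the solvent and then 1 µg/ml LPS, and LPS+cordycepin cells received both agents. Drug or solvent was present for 120 min in all and LPS for the last 60 min. Each condition had 4 replicates, and each replicate number stands for 1 culture day on which the 4 conditions were grown in wells of the same plate, so the replicates are repeats of a single line. The material was bulk RNA, in which fewer responding cells and less RNA per cell cannot be told apart. It was labelled by priming from poly(A), so a level is that of RNA labelled through its tail, and tail length was not measured.

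LPS is sensed by Toll-like receptor 4 and its coreceptors, which activate NF-κB and the MAP kinases. Both turn on ready-to-transcribe genes within an hour, among them the immediate early transcription factors, cytokines such as tumour necrosis factor, and inhibitors such as IκBα and A20 that end the signal. Cordycepin is an adenosine analogue that lacks the 3′ hydroxyl group and, once phosphorylated, can act as a chain terminator in the addition of poly(A) tails.

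Between 37.0% and 43.7% of spots were well above background on the arrays of the first slide (replicates 1 and 2) and between 45.6% and 51.1% on those of the second slide (replicates 3 and 4), each slide carrying all 4 conditions. No spot was marked as saturated. Of 10 macrophage markers fixed for the check of the label, 10 were well above background on all 16 arrays, and of 12 markers of other cell types 5 were on no array, while Cd3e and Elane were on all 16 and Mpo on 13. On DMSO replicate 2, 20 of 21 interferon response genes and 14 of 24 cytokine genes were higher than on each of the other 3 DMSO arrays, and the lists' median differences from the median of those arrays were 1.97 and 0.61 (log2), so results for these genes are also given without it. Leaving it out lowers the DMSO mean of genes that were high on it, and so moves their interactions down. On DMSO replicate 1 the median differences were 1.04 and 0.48, and on cordycepin replicate 1 20 of 21 interferon genes were the highest of their condition, with a median difference of 0.96. Without DMSO replicate 1 or without cordycepin replicate 1 the interferon median interaction was 0.18 or 0.16 with 0 passing, and 3 or 1 cytokines passed, with medians of -0.83 or -0.66.

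The interaction passed an adjusted p of 0.05 (limma with culture day as a block, Benjamini-Hochberg over 15911 genes) in 208 genes, 1.31% of those tested. It was below 0 in 93 (0.585%) and above 0 in 115 (0.723%). LPS-responsive genes were chosen by the mean of both LPS responses, which in this balanced design does not favour either sign of the interaction. LPS raised 313 genes (1.97%) and lowered 280 (1.76%) at least 2-fold. A response was called blunted or enlarged when the interaction passed, kept when it did not pass and its 95% confidence interval lay within 2-fold in both directions, and open otherwise. Kept thus includes genes whose interval lies wholly below 0, and blunted includes genes whose interval lies within 2-fold.

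Of the 313 LPS-raised genes, 43 (13.7%, against 0.585% of all genes below 0) were blunted, 16 (5.11%, against 0.723% above 0) were enlarged, 103 (32.9%) were kept and 151 were open. Over all genes tested 84.4% met the rule for kept. The median interaction of the LPS-raised genes was -0.41, with 227 (72.5%) below 0, beside a median of 0.00 and 49.2% below 0 over all genes. The medians on the 4 culture days were -0.49, -0.18, -0.43 and -0.48 (mean -0.39 ± 0.14, SD, n = 4). For the 30 genes with a mean LPS response of at least 4 the median was -0.61, for the 83 between 2 and 4 it was -0.50 and for the 200 below 2 it was -0.35. The 280 LPS-lowered genes mirrored this, with a median of 0.34, 24 (8.57%) blunted, 133 kept, 123 open and 0 enlarged. With the block for culture day left out 88 interactions passed, with 25 blunted and 11 enlarged among the LPS-raised genes. Without DMSO replicate 2 the number was 265, with 64 and 17, and leaving out any other single array gave 101 to 195. Set relative to spiked-in control probes, all genes shifted to a median of -0.21, the LPS-raised genes to -0.66 and the LPS-lowered genes to 0.07, and 38 genes passed below 0 and 28 above. Relative to each array's median signal the split was 19 and 46. Within the first slide alone, with 2 arrays a condition, the LPS-raised median was -0.36, with 1 blunted and 6 enlarged, and within the second it was -0.40, with 11 and 10.

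**Figure D1:**
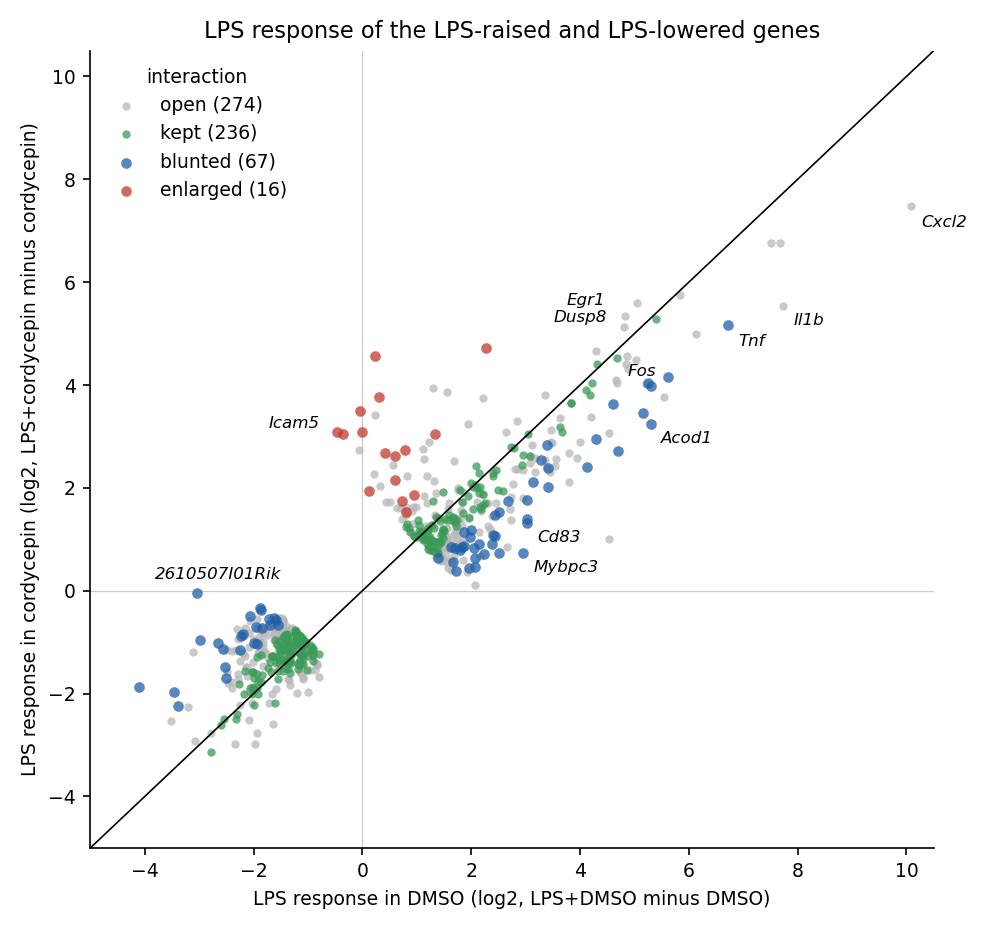
LPS response in DMSO (x axis) and in cordycepin (y axis), both log2, of the 313 LPS-raised and 280 LPS-lowered genes, coloured by class of interaction, where the line marks equal responses. Blunted genes lie between the line and the 0 response in both directions, kept genes lie along the line, and the 16 enlarged genes lie above it, most at a DMSO response below 1.

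Tnf, which encodes tumour necrosis factor, had a very large rise that was smaller in the presence of the drug. Its level (log2, replicates 1 to 4) was 11.29, 11.20, 10.83 and 10.98 in DMSO, 11.57, 11.39, 11.69 and 11.57 in cordycepin, 18.00, 17.83, 17.74 and 17.59 in LPS+DMSO and 16.56, 16.73, 16.76 and 16.85 in LPS+cordycepin. The conditions did not overlap: both LPS conditions were far above the others, LPS+cordycepin was below LPS+DMSO on every array, and cordycepin alone was slightly above DMSO. The rise was 105-fold in DMSO and 35.9-fold in cordycepin, an interaction of -1.55 ± 0.17 (SE, n = 4 culture days, limma adjusted p = 0.00158). Within the 2 slides it was -1.51 and -1.58, with adjusted p of 0.16 and 0.0539 (limma).

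Acod1 makes itaconate, a metabolite that restrains inflammation, and had the second most negative interaction among the named LPS-raised genes that passed. Its level was 11.28, 11.16, 10.57 and 10.29 in DMSO, 10.84, 10.62, 10.45 and 10.33 in cordycepin, 16.13, 16.09, 16.13 and 16.13 in LPS+DMSO and 13.68, 13.82, 13.82 and 13.92 in LPS+cordycepin. Without LPS the values with and without drug overlapped, and with LPS they were separated. LPS raised Acod1 39.3-fold in DMSO and 9.49-fold in cordycepin (interaction -2.05 ± 0.24, limma adjusted p = 0.00168).

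Cd83, a surface molecule of activated antigen-presenting cells, measured 12.10, 11.59, 12.28 and 12.40 in DMSO, 11.72, 11.83, 12.10 and 12.24 in cordycepin, 14.93, 15.07, 15.17 and 15.30 in LPS+DMSO and 12.90, 13.16, 13.33 and 13.74 in LPS+cordycepin. As with Acod1, only the LPS conditions were apart. Its 8.14-fold rise became 2.48-fold (interaction -1.71 ± 0.17, limma adjusted p = 0.000852). The activation surface molecules as a list had 4 LPS-raised members of 11 tested, of which 3 were blunted: Cd83, the heparan sulphate proteoglycan Sdc4 (-1.10) and the adhesion molecule Icam1 (-0.93). Over all LPS-raised genes 13.7% were blunted. Cd40 was open, at -0.23 with a 95% interval of -1.74 to 1.29. Cd44, the hyaluronan receptor, did not reach a 2-fold LPS response and had an interaction of -0.59 that passed. Without DMSO replicate 2, 2 of the 4 LPS-raised members were blunted, as Sdc4 had an adjusted p of 0.057, and Cd44 had one of 0.0567 (limma).

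**Figure D2:**
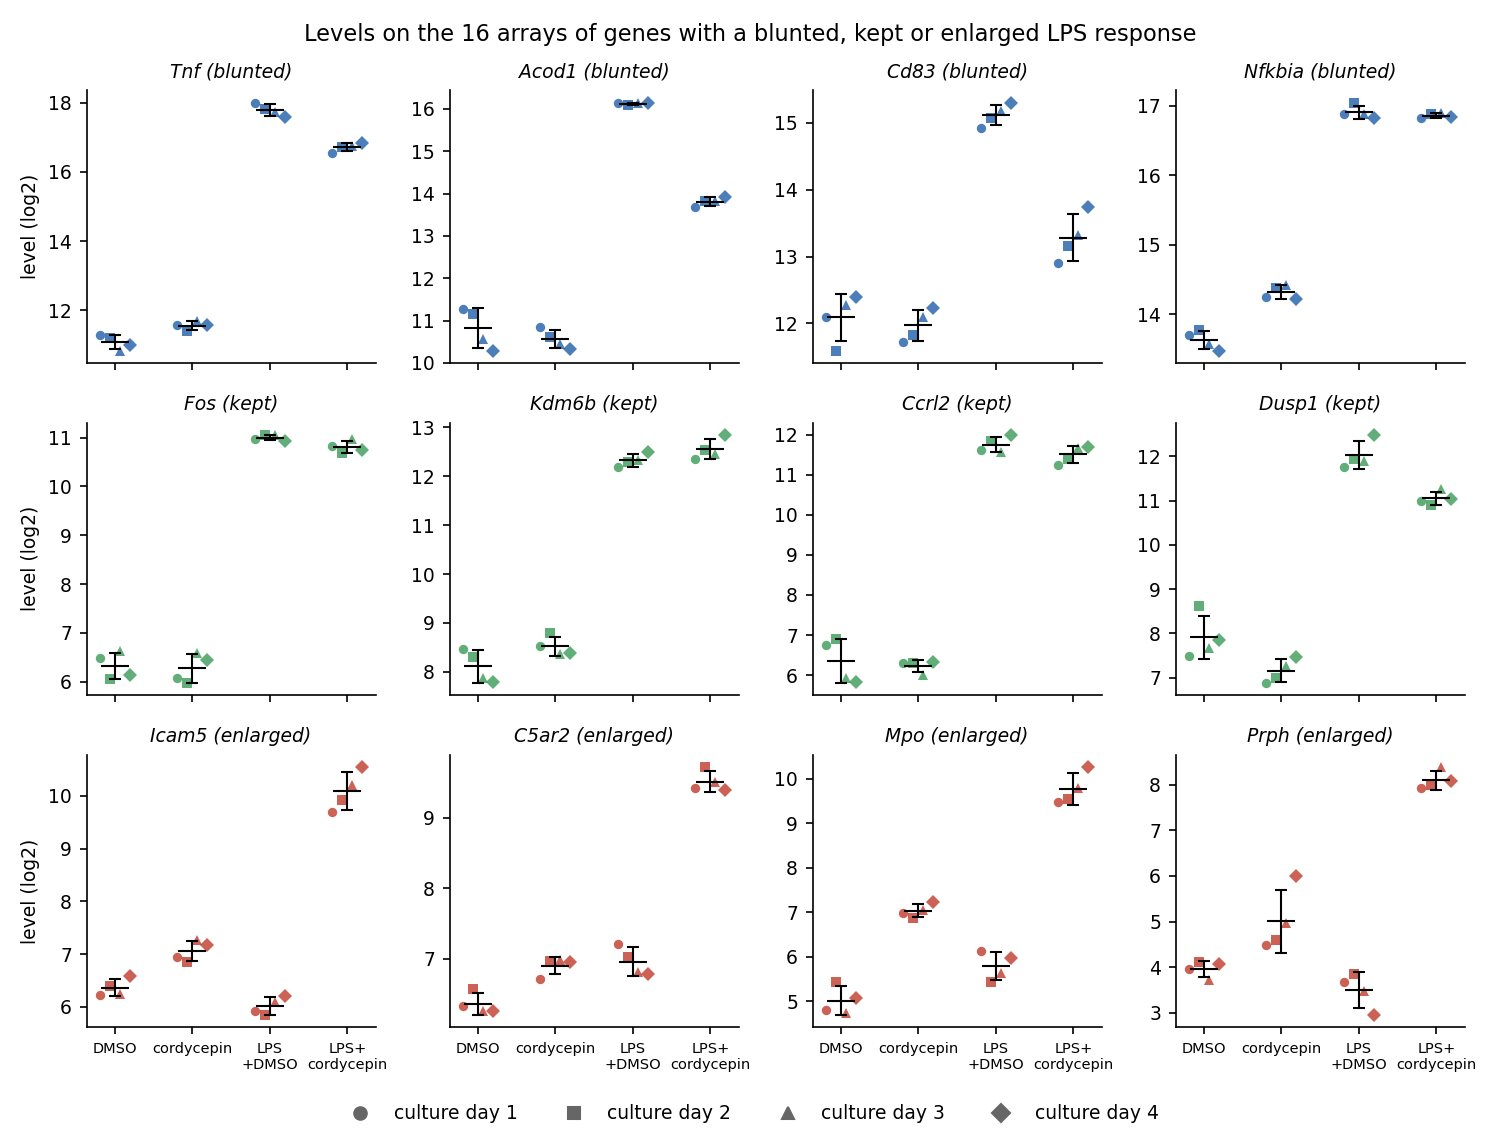
Level (log2) on each of the 16 arrays for 4 blunted (top), 4 kept (middle) and 4 enlarged genes (bottom), with markers by culture day and black bars for mean ± SD (n = 4). Tnf, Acod1 and Cd83 are lower with the drug under LPS, Nfkbia reaches overlapping levels from a higher start, the kept genes rise by similar amounts, and the enlarged genes are high in LPS+cordycepin.

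Of the inhibitors that end NF-κB signalling, IκBα, A20 and an A20-binding protein had blunted rises. Nfkbia (IκBα) measured 13.70, 13.77, 13.57 and 13.48 in DMSO, 14.25, 14.38, 14.42 and 14.22 in cordycepin, 16.89, 17.04, 16.89 and 16.83 in LPS+DMSO and 16.83, 16.89, 16.89 and 16.84 in LPS+cordycepin. Its levels under LPS overlapped, and the levels without LPS were higher in cordycepin on every array, by 0.69 (limma adjusted p = 2.62e-05). The LPS response was 9.71-fold in DMSO and 5.82-fold in cordycepin, with an interaction of -0.74 ± 0.11 (limma adjusted p = 0.00535). It did not pass when scaled to the array median (-0.75, limma adjusted p = 0.345) or to the spiked-in probes (-0.95, limma adjusted p = 0.598).

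Tnfaip3 (A20), an enzyme that edits ubiquitin on the signalling complex, measured 9.63, 9.30, 9.28 and 9.01 in DMSO, 9.81, 9.33, 9.59 and 9.54 in cordycepin, 14.66, 14.68, 14.49 and 14.36 in LPS+DMSO and 13.44, 13.66, 13.57 and 13.77 in LPS+cordycepin. Here the overlap was without LPS and the separation with LPS. The rise of 37.8-fold became 16.5-fold (interaction -1.20 ± 0.19, limma adjusted p = 0.0102), and under the same scalings its adjusted p was 0.0636 and 0.0784 (limma). The A20-binding proteins Tnip3 (-1.33) and Tnip1 (-0.73) and the IκB kinase family member Ikbke (-1.16) also passed below 0, the last 2 with a mean LPS response under 2-fold.

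In all, 5 of the 20 NF-κB subunits, inhibitors and regulators tested passed below 0 (0.585% of all genes did), and the list's median interaction was -0.39, beside 0.00 over all genes. Of 9 LPS-raised members 3 were blunted, 3 were kept (Nfkbid, Bcl3 and Nfkb2) and 3 were open. Nfkbiz, an atypical IκB, was open at -1.18 (adjusted p = 0.113) and passed without DMSO replicate 2, at -1.47 (limma adjusted p = 0.00519), where 7 of the 20 passed below 0 (0.855% of all genes).

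Among 34 TLR and TNF receptor signalling genes the median was -0.05 and 3 passed below 0, beside 0.585% of all genes, and 1 did without cordycepin replicate 1. Traf1, an adaptor of TNF receptors, measured 9.09, 8.72, 8.44 and 8.11 in DMSO, 8.16, 7.74, 7.68 and 7.47 in cordycepin, 13.74, 13.56, 13.58 and 14.09 in LPS+DMSO and 10.97, 11.10, 11.17 and 11.64 in LPS+cordycepin. Across days only the LPS conditions were without overlap between drug and solvent, with LPS+cordycepin 5.75-fold lower. Without LPS the cordycepin value was lower on each culture day, with a drug difference of -0.83 (limma adjusted p = 0.0179). The response was 35.6-fold in DMSO and 11.0-fold in cordycepin (interaction -1.70 ± 0.31, limma adjusted p = 0.0184). Without cordycepin replicate 1 or 2 its adjusted p was 0.0561 or 0.0512 (limma). Tlr2, a receptor for bacterial lipoproteins, had an interaction of -0.96 and Tank, a TRAF-binding adaptor, one of -0.91. Tlr4 and Myd88 themselves were not LPS-raised and had interactions of 0.21 and 0.10, neither past the threshold.

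Zc3h12a encodes regnase-1, an endonuclease that cuts inflammatory mRNAs. It measured 6.13, 3.89, 5.76 and 6.04 in DMSO, 6.37, 5.72, 6.73 and 6.78 in cordycepin, 10.02, 10.17, 10.06 and 10.38 in LPS+DMSO and 8.98, 8.67, 9.39 and 9.47 in LPS+cordycepin. The DMSO values were wide, with replicate 2 lowest, and the interaction of -1.97 ± 0.41 (limma adjusted p = 0.0385) missed the threshold under 26 of the 39 alternative settings. With normexp background correction it was -1.24 (limma adjusted p = 0.00879). It was the only one of the 23 genes of mRNA decay and deadenylation that passed (1.31% of all genes did), and their median interaction was 0.07. Zfp36 (tristetraprolin), which directs AU-rich mRNAs to decay, rose 5.85 in DMSO and 5.76 in cordycepin (log2) and was open, at -0.09 with an interval of -1.04 to 0.86.

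The 15 inflammatory effectors tested had a median interaction of -0.62, and of 7 LPS-raised members Acod1 and Pde4b (-1.35), a cyclic AMP phosphodiesterase, were blunted, the urokinase receptor Plaur was kept (-0.45) and 4 were open, among them the prostaglandin synthase Ptgs2 (-0.87, limma adjusted p = 0.0625). The share blunted over all LPS-raised genes was 13.7%. Of 6 LPS-raised MAP kinase phosphatases and feedback inhibitors, Dusp2 (-0.56) was blunted, Dusp1 and Dusp16 (-0.55) were kept and 3 were open. The 95% interval was -0.82 to -0.29 for Dusp2 and -0.98 to -0.12 for Dusp16. Their classes therefore differ by the threshold and not by the size of the interaction. Pde4b and Dusp2 did not pass without DMSO replicate 2 (limma adjusted p of 0.0567 and 0.0609). Of 3 LPS-raised suppressors of cytokine signalling Socs3 was kept (-0.49) and 2 were open.

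Further blunted genes were Hcar2 (-1.79), the nicotinic acid receptor, and Il4i1 (-1.52), a secreted amino acid oxidase. Hcar2 missed the threshold under 26 of 40 alternative settings and Il4i1 under 8. Of the genes above, Tlr2 missed it under 24 of 40, and Icam1 and Tnip1 each under 22. The 27 blunted genes with a symbol ranged from Mybpc3 at -2.23 to Dusp2. Of 117 named genes with a passing interaction 22 had further probes, and the probes differed in sign only for Map3k2, whose interactions lay between -0.09 and 0.75. For Cd44 the 3 probes gave interactions from -1.81 to -0.15, and the probes of Tnip3 gave -1.33 and -0.54.

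**Figure D3:**
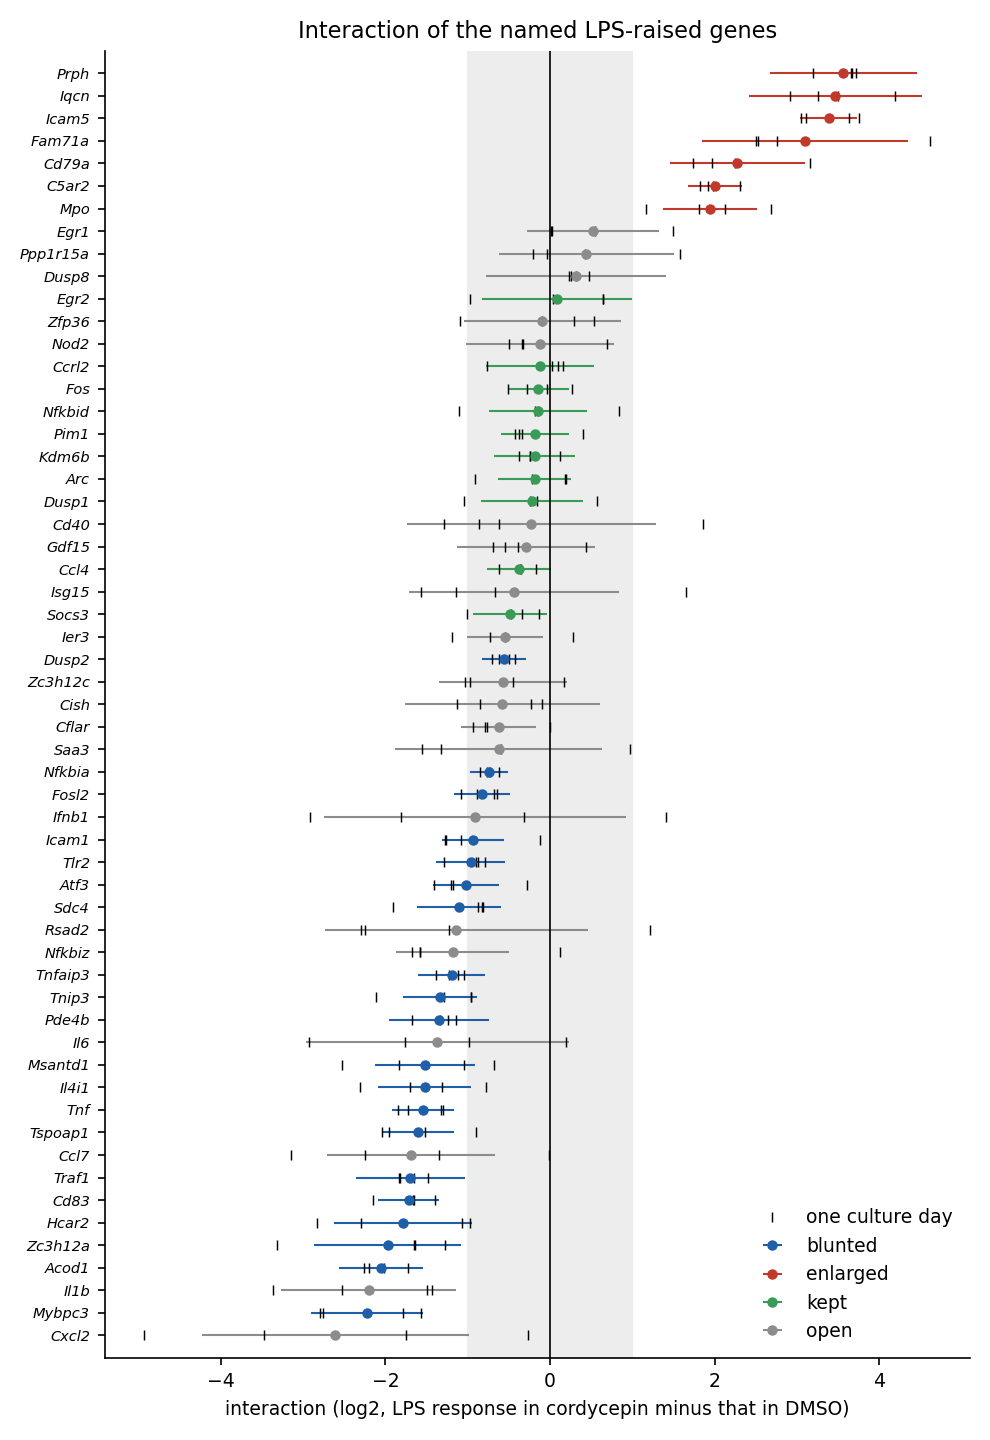
Interaction (log2) of the LPS-raised genes named by the rule, with dots and lines for the estimate and its 95% confidence interval, ticks for the 4 culture days, and grey shading for changes within 2-fold. Blunted genes lie left of 0 on every day, kept genes lie inside the shading, and open genes such as Cxcl2, Il6 and Rsad2 have wide intervals and days spread apart.

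Among the LPS-raised immediate early genes more were kept than were blunted or open. Fos, a subunit of AP-1, measured 6.48, 6.06, 6.62 and 6.13 in DMSO, 6.07, 5.98, 6.59 and 6.45 in cordycepin, 10.97, 11.04, 11.04 and 10.93 in LPS+DMSO and 10.83, 10.69, 10.97 and 10.74 in LPS+cordycepin. Drug and solvent overlapped both without and with LPS. Its rise was 25.5-fold in DMSO and 23.2-fold in cordycepin, and the 95% interval of the interaction was -0.51 to 0.23 (estimate -0.14).

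Kdm6b, a histone H3 lysine demethylase, measured 8.47, 8.31, 7.87 and 7.79 in DMSO, 8.53, 8.80, 8.37 and 8.38 in cordycepin, 12.18, 12.29, 12.33 and 12.50 in LPS+DMSO and 12.36, 12.54, 12.46 and 12.85 in LPS+cordycepin. Its responses of 18.6-fold and 16.4-fold differed by -0.18 (-0.68 to 0.31). The other kept genes with the largest mean LPS responses were Ccrl2, an atypical chemoattractant receptor (-0.12), the transcription factor Egr2 (0.09), the MAP kinase phosphatase Dusp1 (-0.22), the chemokine Ccl4 (-0.38), Arc (-0.19) and the kinase Pim1 (-0.18). A kept response did not mean an unaltered level. The drug difference of Dusp1 was -0.75 without LPS and -0.97 with it, and that of Ccl4 was -0.69 and -1.06 (limma, all with an adjusted p under 0.05).

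Of 29 immediate early genes tested 21 were LPS-raised, and of these 12 were kept, 2 blunted and 7 open. Of all LPS-raised genes 32.9% were kept and 13.7% blunted. The blunted ones were the AP-1 family members Atf3 (-1.02) and Fosl2 (-0.82). Fos, Fosb (-0.02), Jun (0.16) and Jund (-0.27) of the same family were kept. Egr1 was open, with 0.52 and an interval of -0.28 to 1.32. It was not well above background on any array without LPS, and its rise was at least 15.7-fold in DMSO and at least 18.2-fold in cordycepin. The median interaction of the list was -0.27. Without DMSO replicate 2, 2 of 22 LPS-raised members were blunted and 13 kept, and without cordycepin replicate 1 0 of 21 were blunted in the limma fit.

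Promoters of both groups were searched for 4 motifs in the 250 bases before the RefSeq start (GRCm38.p6, 1 start a gene): the NF-κB consensus, AP-1 (TGAGTCA), the cyclic AMP response element (TGACGTCA), each on both strands, and the TATA box (TATAAA) on the gene's strand. None of these strings contains another. Of the 27 blunted and 79 kept genes with a symbol, 22 and 64 had a promoter there. The NF-κB consensus was in 6 of the 22 (27.3%) and 11 of the 64 (17.2%), beside 18.0% of LPS-raised genes, 8.50% of all genes tested and 7.01% of all 27025 promoters. The cyclic AMP response element was in 0 of the 22 and 6 of the 64 (9.38%), beside 5.62% of LPS-raised genes, 2.91% of all genes tested and 1.62% of all promoters. Examples of each are shown as 100 bases ending before the start, 5′ to 3′ on the gene's minus strand, with the motif in capitals and overlapping matches joined. They are shown as examples of these motifs and not of the classes. The kept Nfkb2, Fos and Egr2 also had NF-κB matches, and the blunted Tnf and Acod1 had none.
Nfkbia, blunted, chr12:55492648-55492747: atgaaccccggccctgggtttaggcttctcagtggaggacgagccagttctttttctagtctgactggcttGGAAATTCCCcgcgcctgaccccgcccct
Tlr2, blunted, chr3:83841727-83841826: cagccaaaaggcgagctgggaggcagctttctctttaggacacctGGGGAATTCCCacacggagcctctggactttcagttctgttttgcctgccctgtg
Dusp1, kept, chr17:26508562-26508661: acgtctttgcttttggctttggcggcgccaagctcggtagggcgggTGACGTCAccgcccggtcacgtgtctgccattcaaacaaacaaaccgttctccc
Btg2, kept, chr1:134079268-134079367: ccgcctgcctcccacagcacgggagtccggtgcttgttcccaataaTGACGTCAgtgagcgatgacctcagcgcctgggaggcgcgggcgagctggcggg
These matches describe the windows and were sought after the classes were known. The TATA box was in 3 of the 22 and 3 of the 64, beside 8.99% of LPS-raised genes, 4.14% of all genes tested and 8.12% of all promoters. AP-1 was in 1 of each, beside 6.74%, 2.96% and 4.43%.

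Cytokines and chemokines fell short of a call in most cases, and which of them passed varied with the arrays and settings used. Of 24 tested, 23 had an interaction below 0, with a median of -0.66 beside 0.00 over all genes, yet of the 19 LPS-raised members 1 was blunted (Tnf), 5 were kept (Ccl3, Ccl4, Hbegf, Tnfsf9 and Vegfa) and 13 were open. Without DMSO replicate 2 the median was -1.14 and 7 of 19 were blunted: Tnf, Il1b, Il6, Osm, Ccl2, Ccl7 and Cxcl2. In that fit 0.855% of all genes passed below 0. The array was left out for its high values of these genes, so the lower median follows from that choice. The added calls are a description. In the full fit 13.7% of all LPS-raised genes were blunted. Over the alternative settings Il1b newly passed in 10 of 39, Cxcl2 and Ccl7 each in 4 of 39 and Il6 in 3 of 38.

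Il1b (interleukin 1β) measured 3.97, 4.39, 3.06 and 3.02 in DMSO and 3.59, 3.90, 3.96 and 4.86 in cordycepin, not well above background on any of these arrays, and 10.73, 11.41, 11.39 and 11.82 in LPS+DMSO and 8.93, 9.42, 9.78 and 10.30 in LPS+cordycepin. The 2 LPS conditions did not overlap. LPS raised it at least 77.1-fold in DMSO and at least 22.5-fold in cordycepin. The interaction was -2.20 ± 0.49 (limma adjusted p = 0.0527), and -2.50 without DMSO replicate 2 (limma adjusted p = 0.023), in both cases a difference between responses measured from values at background.

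Cxcl2, a neutrophil attractant, measured 6.71, 7.81, 4.44 and 4.18 in DMSO, 7.91, 7.62, 7.41 and 7.84 in cordycepin, 15.86, 15.89, 15.72 and 16.01 in LPS+DMSO and 15.32, 15.43, 15.22 and 14.74 in LPS+cordycepin. Its DMSO values spread widely and overlapped those in cordycepin, and with LPS the drug values were all lower. The drug difference without LPS was 1.91 (limma adjusted p = 0.0234). The interaction on the 4 days was -1.75, -0.27, -3.47 and -4.93, with an estimate of -2.61 ± 0.74 (limma adjusted p = 0.146) and of -3.26 without DMSO replicate 2 (limma adjusted p = 0.014). The chemokine Ccl7 went from -1.69 to -2.07 and Il6 from -1.37 to -2.14 when that array was left out. Il6 was not well above background on any LPS+cordycepin array.

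All 7 LPS-raised interferon response genes were open, and the list of 21 had a median of 0.17, with 0 passing in the limma fit and 3 at an unadjusted p under 0.05 (2 below 0 and 1 above). Rsad2 (viperin), an antiviral enzyme, measured 10.01, 11.66, 8.02 and 7.82 in DMSO, 8.71, 8.01, 7.65 and 7.52 in cordycepin, 12.82, 12.17, 12.00 and 12.31 in LPS+DMSO and 10.29, 9.75, 9.38 and 9.72 in LPS+cordycepin. Its second DMSO value nearly reached the LPS+DMSO values. The interaction on the 4 days was -1.23, 1.22, -2.25 and -2.30, and without DMSO replicate 2 it was -1.92 (limma adjusted p = 0.0165). In that fit 4 of 21 passed below 0 (0.855% of all genes did) and the median was -0.42, of opposite sign. The array was left out for its high values of this list, so the move down follows from that choice. Ifnb1 (interferon β) was open in both fits, at -0.91 and -1.68.

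In the limma fit 0 of 20 cleavage and polyadenylation genes passed, 0 at an unadjusted p under 0.05, with interactions from -0.28 to 0.19. Likewise 0 passed of 10 reference genes (-0.39 to 0.00), 10 macrophage markers (-0.62 to 0.36) and 14 ATF4 stress response genes (-0.49 to 0.44), with 1, 2 and 1 at an unadjusted p under 0.05, each below 0. Cd14, the LPS coreceptor on the macrophage list, was at -0.62 (-0.95 to -0.29), and the LPS-raised ATF4 list members Ppp1r15a (0.44) and Gdf15 (-0.30) were open.

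The blunted rises were made up in different ways, as the interaction is the drug difference with LPS less the drug difference without it. Of the 43 genes, 35 were lower with the drug under LPS (9.58% of all genes were) and 19 were higher with the drug without LPS (9.55%). The choice of genes by a negative interaction favours both, so these shares are a description. The 43 comprise 24 lower with LPS and not higher without it, 8 the reverse, and 11 both. Acod1, Cd83, Hcar2 and Il4i1 were of the first kind, with drug differences without LPS of -0.26, -0.12, 0.03 and -0.13. Nfkbia was of the second, and Tnf and Zc3h12a were both. Without LPS 8 of the 43 were already lower with the drug (8.94% of all genes were), among them Traf1 (-0.83) and Atf3 (-0.99).

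Mybpc3, a sarcomere protein of heart muscle, had the most negative interaction of the blunted genes with a symbol and another pattern. It measured 5.30, 4.71, 6.12 and 6.26 in DMSO, 10.61, 10.74, 10.87 and 10.65 in cordycepin, 8.61, 8.27, 8.61 and 8.74 in LPS+DMSO and 11.12, 11.53, 11.57 and 11.57 in LPS+cordycepin. With the drug the values were higher in both states, and the drug alone gave higher values than LPS alone. It was well above background on 2 of the 4 DMSO arrays and on all others. Its mean was 34.7-fold higher with the drug without LPS and 7.42-fold higher with LPS. Its interaction of -2.23 ± 0.31 (limma adjusted p = 0.00503) was -1.09 with normexp background correction (limma adjusted p = 0.0409) and did not pass in the authors' values (-1.56, limma adjusted p = 0.093). Tspoap1, which binds a mitochondrial benzodiazepine receptor, was also higher with the drug in both states, with drug differences of 2.79 and 1.19 and an interaction of -1.60 ± 0.20 (limma adjusted p = 0.0026). Msantd1 (2.25 and 0.73) was the third, and these were the 3 blunted genes of 43 that were higher with the drug under LPS at an adjusted p under 0.05.

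**Figure D4:**
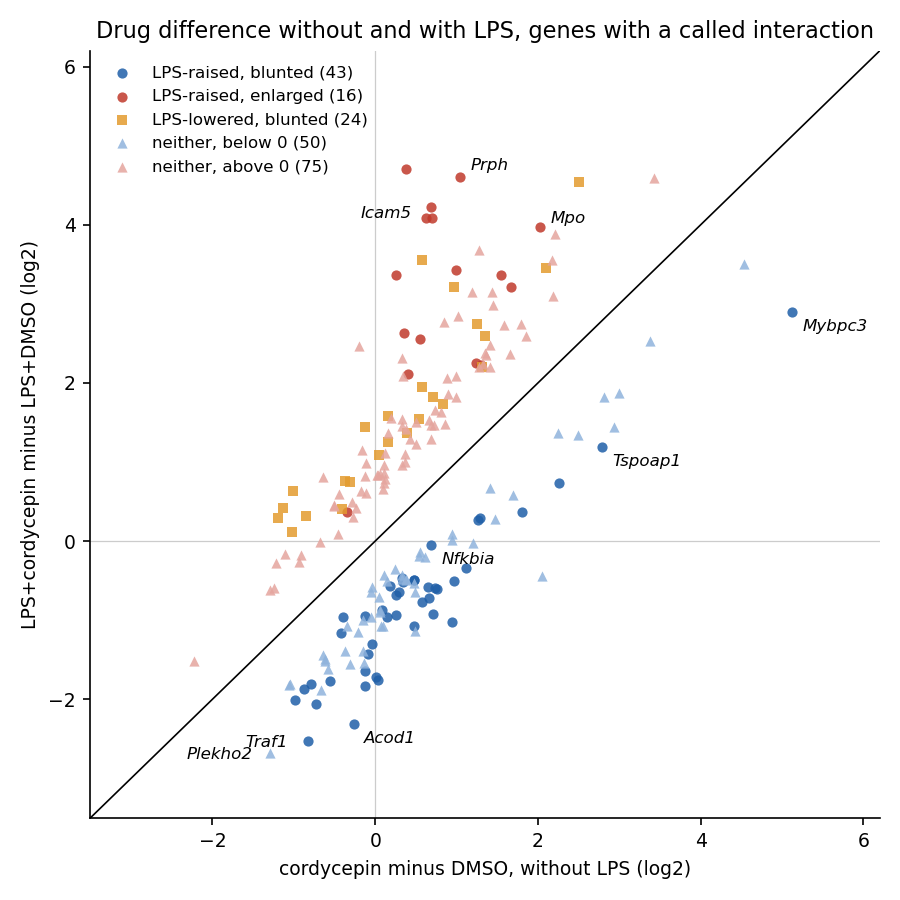
Drug difference without LPS (cordycepin minus DMSO, x axis) and with LPS (LPS+cordycepin minus LPS+DMSO, y axis), both log2, of the 208 genes with a passing interaction, coloured by class, where the line marks equal differences. Points below the line have a negative interaction and points above it a positive one, and the axes share arrays with the interaction, so the separation from the line is how the genes were chosen.

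The 24 LPS-lowered genes with a blunted fall had median responses of -2.13 in DMSO and -0.86 in cordycepin, and 11 had a symbol. Pik3ip1, an inhibitor of PI3 kinase, measured 8.64, 9.24, 8.92 and 8.70 in DMSO, 8.54, 8.59, 8.93 and 8.95 in cordycepin, 6.52, 7.08, 7.02 and 6.61 in LPS+DMSO and 8.21, 8.22, 8.45 and 8.15 in LPS+cordycepin. Without LPS the values overlapped, and with LPS they were higher with the drug on every array. LPS lowered Pik3ip1 4.19-fold in DMSO and 1.41-fold in cordycepin (interaction 1.57 ± 0.19, limma adjusted p = 0.00194). Scaled to the spiked-in probes it was 1.35 and did not pass (limma adjusted p = 0.116), and with normexp it was 1.01 and passed.

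A noncoding transcript, 2610507I01Rik, had an interaction of 2.99 ± 0.18 (limma adjusted p = 9.65e-06), a size that rests on a condition at background. It measured 6.42, 6.82, 6.91 and 7.35 in DMSO, 7.13, 7.14, 7.77 and 7.74 in cordycepin, 3.65, 3.95, 3.61 and 4.12 in LPS+DMSO (not well above background on these 4 arrays) and 6.98, 7.39, 7.50 and 7.70 in LPS+cordycepin. Only LPS+DMSO was low. With normexp its interaction was 0.77 and in the authors' values 1.28, and both passed. The fall in DMSO was at least 3.17-fold, beside -0.05 (log2) in cordycepin. Of the 24 genes, 19 were higher in LPS+cordycepin than in LPS+DMSO (12.1% of all genes were), which their choice by a positive interaction favours. Without LPS 10 were higher with the drug and 6 lower (8.94% of all genes were). Among the latter, Wdr5b (1.64) and Frat2 (1.54) started lower, with drug differences of -1.02 and -1.13, and neither passed without DMSO replicate 2 (limma adjusted p of 0.0701 and 0.0509). Each was well above background on all 4 DMSO arrays but only on 2 cordycepin, 1 LPS+DMSO and 2 LPS+cordycepin arrays, so these values lie near the background. No LPS-lowered gene had an enlarged fall in the limma fit, with 11 of 280 below 0 at an unadjusted p under 0.05.

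For the 16 enlarged genes the choice by the mean response and a positive interaction fixes that the response was larger with the drug, so their responses are a description. The median was 2.88 in cordycepin and 0.50 in DMSO, and the LPS comparison passed at 2-fold or more in 16 of 16 and 2 of 16. Chosen by the response in DMSO alone, 2 LPS-raised genes were enlarged. All 16 were higher in LPS+cordycepin than in LPS+DMSO, and 9 were higher in cordycepin than in DMSO. In 7 of them some condition had no array well above background, and 4 were well above it on all 16 arrays. Most met the filter through LPS+cordycepin alone, the condition where they were high. Among these were Iqcn, Prph, Fam71a, Cd79a and the intergenic probe with the largest interaction. Icam5, an adhesion molecule of neurons, measured 6.22, 6.40, 6.25 and 6.59 in DMSO, 6.95, 6.85, 7.26 and 7.17 in cordycepin, 5.92, 5.85, 6.09 and 6.21 in LPS+DMSO and 9.70, 9.92, 10.21 and 10.55 in LPS+cordycepin. The last condition was far above the other 3. LPS changed Icam5 by -0.35 in DMSO and 3.04 in cordycepin (interaction 3.39 ± 0.16, limma adjusted p = 8.53e-07).

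C5ar2, a receptor for complement C5a, measured 6.32, 6.57, 6.26 and 6.26 in DMSO, 6.71, 6.96, 6.98 and 6.95 in cordycepin, 7.21, 7.03, 6.81 and 6.79 in LPS+DMSO and 9.42, 9.72, 9.51 and 9.40 in LPS+cordycepin. Both agents alone gave values slightly above DMSO, and LPS+cordycepin was above either by more than 2 log2 units on every array. The response was 1.52-fold in DMSO and 6.11-fold in cordycepin (interaction 2.01 ± 0.15, limma adjusted p = 5.58e-05).

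Mpo, the peroxidase of neutrophil granules, measured 4.81, 5.44, 4.73 and 5.09 in DMSO, 6.99, 6.87, 7.06 and 7.24 in cordycepin, 6.12, 5.43, 5.65 and 5.98 in LPS+DMSO and 9.47, 9.55, 9.79 and 10.26 in LPS+cordycepin. Its interaction was 1.95 ± 0.26 (limma adjusted p = 0.00405). The other markers of other cell types that were tested, the neutrophil elastase Elane and the T cell receptor subunit Cd3e, had interactions of -0.33 and 0.25 that did not pass, and the part of other cells in the Mpo result was not tested. Prph, an intermediate filament of neurons, was well above background on all 4 LPS+cordycepin arrays (7.93, 8.01, 8.39 and 8.08) and on none of the DMSO or LPS+DMSO arrays. It was at least 7.42-fold higher in LPS+cordycepin than in LPS+DMSO, and Iqcn at least 5.43-fold. With normexp the interactions of Prph, Iqcn and Fam71a were 1.51, 1.42 and 1.21, against 3.56, 3.47 and 3.10, and all passed. That of Fam71a missed the threshold in 6 fits that left out 1 array each. Cd79a, a subunit of the B cell receptor, had an interaction of 2.28, while the B cell marker Ms4a1 was not well above background on any array.

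Some of the enlarged genes lay downstream of other LPS-raised genes. An LPS-raised gene with a symbol had its probe within 50 kb upstream on the same strand for 6 of the 16 enlarged genes (37.5%), beside 6.07% of LPS-raised and 0.797% of all genes with a position (mm9, from the array files), and for the other 10 there was none. Within 50 kb downstream there was one for 0 of the 16. This search was made after the classes were known, and it was not tested. Of the genes with such a neighbour, Iqcn, Fam71a and the intergenic probe near Btg2 met the background filter through LPS+cordycepin alone. That is the condition where they were high, so the shares are a description. Icam5 (chr9:20843419-20843478) lay 8.84 kb beyond Icam4, and both lie downstream of the blunted Icam1 (chr9:20832290-20832349). The interactions along this stretch were -0.93 for Icam1, 2.64 for Icam4 (open) and 3.39 for Icam5.

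Fam71a (chr1:192986463-192986522) lay 8.03 kb beyond the blunted Atf3, with interactions of 3.10 and -1.02. Mpo (chr11:87617840-87617899) lay 18.4 kb beyond Tspoap1, at 1.95 and -1.60. C5ar2 (chr7:16820101-16820160) lay 12.1 kb beyond its paralogue C5ar1, which was open at -1.81. Iqcn (chr8:73240942-73241001) lay 16.4 kb beyond the kept Jund. An intergenic RNA probe on chromosome 1, with the largest interaction of all, 4.33, lay 15.3 kb beyond the kept Btg2 (-0.57). The upstream interaction was below 0 in 5 of the 6 pairs, beside 72.5% of all LPS-raised genes, and 2 of them passed, those of Atf3 and Tspoap1.

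**Figure D5:**
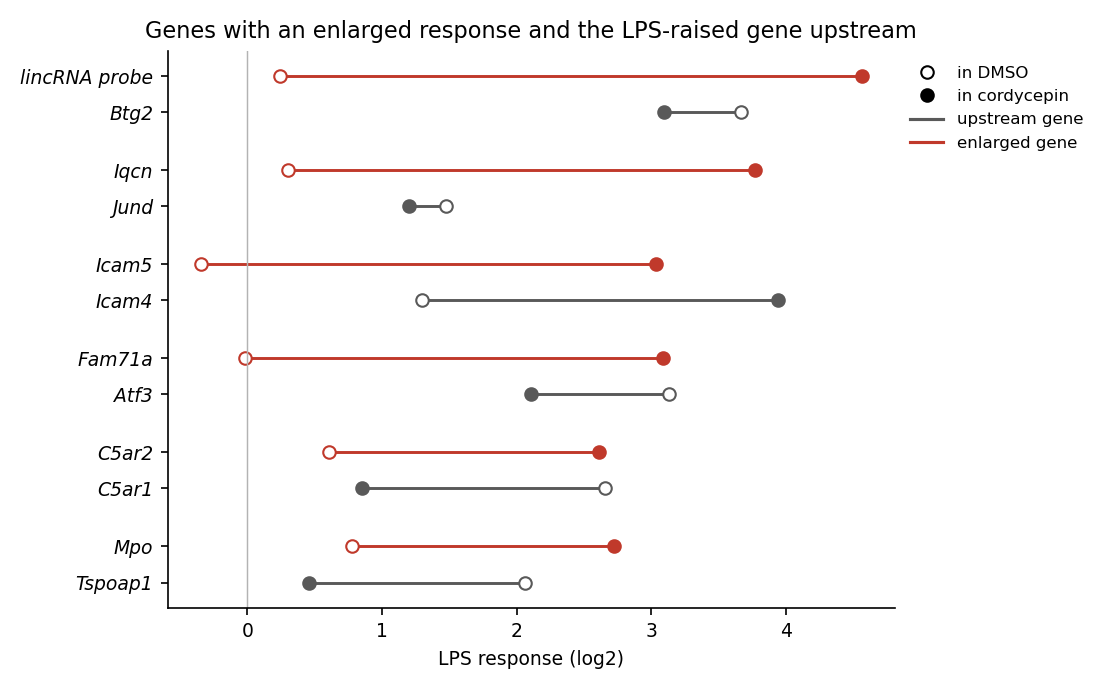
LPS response (log2) in DMSO (open circles) and in cordycepin (filled circles) of 6 enlarged genes and of the nearest LPS-raised gene within 50 kb upstream on the same strand. The enlarged genes (red) move to the right with the drug, and the upstream genes (grey) move to the left except Icam4.

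Beyond the LPS-responsive genes, 50 genes passed below 0 and 75 above 0 with a mean LPS response under the limit. Among the former was Plekho2, at 14.51, 13.80, 14.42 and 14.50 in DMSO, 13.03, 12.87, 13.21 and 12.96 in cordycepin, 15.55, 15.62, 15.50 and 15.85 in LPS+DMSO and 12.93, 12.71, 13.05 and 13.12 in LPS+cordycepin. It responded to LPS in DMSO, and its drug values overlapped with and without LPS. The responses were 1.32 and -0.07 (interaction -1.39 ± 0.18, limma adjusted p = 0.00265). Rcvrn, the calcium sensor of photoreceptors, was raised by LPS in DMSO (1.76) and had a response of -0.73 in cordycepin (interaction -2.49 ± 0.36, limma adjusted p = 0.00535, and -1.11 with normexp). Its drug difference was 2.05 without LPS and -0.44 with it. Rcvrn was well above background on only 2 DMSO and 3 LPS+cordycepin arrays. Above 0 among genes with a symbol, Chadl (2.66), the ciliary kinase Nek8 (1.98) and Cd164l2 (1.83) had the largest interactions, with responses in DMSO of -0.89, -0.63 and -0.21 and in cordycepin of 1.76, 1.34 and 1.62. Cd164l2 was well above background on only 2 DMSO, 2 cordycepin and 1 LPS+DMSO arrays, and met the filter through LPS+cordycepin alone. Its interaction was as low as 0.78 over the alternative settings and missed the threshold under 7 of 39.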

How the data were processed

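RNA from 16 cultures was hybridised to Agilent 1-colour mouse arrays after labelling with a kit that primes from poly(A). The deposited scanner files give each spot's intensity as extracted by the authors with Feature Extraction (10.7.3.1 in the file headers, 10.10.1.1 in the submitters' processing notes), background-subtracted and not normalised between arrays. A deposited table holds the authors' log2 values, normalised by a method that is not given in the sources used here, and served as an alternative. No column lacked a sample.

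Here log2 of the processed intensity was set relative to each array's 75th percentile over 18064 probes well above background on all arrays. Outlier spots were left out, spots of 1 probe were averaged, and of several probes for a gene the one with the highest mean was used. Gene names came from RefSeq (27650 by accession, 3406 by symbol, 321 by synonym, 24304 kept the file's name), and 104 whose position was on another chromosome than the gene were kept under their probe ID. Condition means with the replicate number as a block were fitted with limma 3.58.1 in R 4.3.3. The labels state that a replicate number marks its own day, and residuals of same-numbered arrays of different conditions correlated by a mean of 0.20 (20 of 24 pairs over 0.1), against 0.18 for other numbers on the same slide and -0.19 between slides. "At least" folds set the bright group's mean against the lowest signal well above background on each dim array. On simulated data with 15836 genes and these arrays' spread, the fit recovered 67 of 100 genes with an interaction of 1 and 98 of 100 with one of 2 (log2), with 10 false calls. Precision is limited by 4 arrays a condition. Python 3.11.15 with pandas 2.3.3 and matplotlib 3.10.9 was also used.

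Named genes were, among those passing with the same sign on all 4 days, the 10 lowest and 6 highest of LPS-raised, the 5 highest of LPS-lowered and the 3 lowest and 3 highest of other genes, the 8 kept genes with the largest responses, and called and leading members of 15 gene lists; other genes were named after their values were seen, and some items are not reported here. The comparison, the genes and the lists were chosen with earlier results of these data known. Alternatives covered scaling, background, filters, probes, blocks, thresholds, the choice of LPS-responsive genes, a per-day t-test and leaving out each day and array.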

Additional observations from a re-analysis of the deposited data

Results flagged for a closer look

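In 288 groups of 4 arrays (72 named genes, 4 conditions), 12 held 1 value far from the other 3 by Dixon's test at the 95% level, where chance gives about 1 in 20 (14.4 groups). DMSO replicate 2 gave 3 of them: Zc3h12a at 3.89 and Plekho2 at 13.80 were below the other DMSO arrays, and Nfkbiz at 8.0 above. In DMSO, Rcvrn was also high on replicate 1 (5.66) and Tnip1 low on replicate 4 (14.15). In cordycepin, C5ar2 was low on replicate 1 (6.71) and Ccrl2 low on replicate 3 (6.00). In LPS+DMSO, Acod1 was low on replicate 2 (16.09, others 16.13), Gdf15 low on replicate 3 (13.52) and Ccl7 high on replicate 4 (10.52). In LPS+cordycepin, Mybpc3 was low on replicate 1 (11.12) and Ccl4 low on replicate 2 (16.72). The part of these arrays in the interactions is given by the fits that leave them out.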

How the results depend on the processing

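The 42 named interactions that passed kept their sign under every setting tried, while 14 of the 30 that did not pass, Fos, Dusp1, Cd40 and Ifnb1 among them, took both signs. Of the 42, the ranked genes were chosen for the same sign on all 4 days. A stable sign in genes that passed follows largely from that choice and from the passing itself. Of 2847 comparisons of a named interaction with the reported fit, 2307 stayed on the same side of the threshold, 513 missed it and 27 newly passed. The numbers below are, in order, all calls, LPS-raised blunted, enlarged and kept, and LPS-lowered blunted genes, 208, 43, 16, 103 and 24 as reported. Without the replicate block, hence without the pairing by culture day, they were 88, 25, 11, 86 and 8, and 87 of the 88 calls were shared. Scaling to the array median gave 65, 16, 22, 120 and 7. Scaling to the spiked-in probes gave 66, 28, 14, 18 and 4, with 1 LPS-lowered gene enlarged (0 as reported). The authors' values gave 105, 30, 15, 103 and 4, and normexp 196, 49, 14, 98 and 4 with 1 enlarged fall. With no filter on dim probes they were 47, 10, 8, 93 and 5, and with probes above background on all arrays 139, 32, 4, 87 and 10. Within the first slide they were 10, 1, 6, 62 and 1, and within the second 32, 11, 10, 111 and 4. At an adjusted p under 0.01 the counts were 53 calls, 13, 7 and 6, and with 2-fold required 109 calls, 28, 14 and 20. Choosing genes by LPS in DMSO alone gave 63 blunted, 2 enlarged and 48 blunted falls. The methods' t-test passed 1 gene, with 0 blunted, 0 enlarged and 0 blunted falls, and 1527 genes at an unadjusted p under 0.05. Other settings gave 15 blunted falls (quantile normalization) and 28 kept genes (interval within 1.5-fold, chosen after seeing the data). Leaving out 1 day or array gave 33 to 265 calls, 6 to 64 blunted, 5 to 17 enlarged, 85 to 113 kept and 6 to 23 blunted falls, with 0 to 1 enlarged falls. The lowest counts came from leaving out a whole day. Single arrays that lowered the calls by more than 1.5 times were cordycepin replicates 1 (105), 2 (114) and 4 (137), LPS+DMSO replicate 3 (126) and LPS+cordycepin replicate 3 (101). The cause was not tested. Dim genes limit the rest: of the 16 enlarged genes, 7 had a condition at background.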
